A study of Mus musculus with 8 samples.

Results

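Synovial fibroblasts of arthritic mice were compared between cells that had been enriched for 2 surface proteins, FAP and Pdpn, and cells taken without that enrichment. Every animal of the comparison carried the human TNF transgene hTNFtg197 (strain B6-Tg(TNF)197Gkl), had received Il23mc for 9 days, was 8 to 10 weeks old and had been given no inhibitor. Cells came from ankle and wrist joints. The sorted group (FAP-sorted) held viable CD45-negative cells positive for FAP and Pdpn from 5 animals, and the other group (unsorted) held viable cells of 3 animals that the labels describe as CD45- GR-1. The unsorted library held a further animal, a wild-type healthy one, whose 749 annotated fibroblasts entered no comparison. Antibody hashtags marked the animal of each cell, and animals are the replicates throughout. Members were the cells of both groups that the deposited annotation places in 1 of 5 fibroblast classes, Lining, Mmp3+, Il6+, Cd200+ and Pi16+. They numbered 5893 FAP-sorted and 4743 unsorted cells, 10636 of the 24227 annotated cells of the series. The transgene is not restricted to fibroblasts, so fibroblasts of both groups came from animals with a body-wide excess of TNF.

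FAP is a membrane-bound serine protease that cleaves collagen fragments and is carried by activated fibroblasts of inflamed joints, tumours and scars. Pdpn, podoplanin, is a mucin-like membrane glycoprotein of stromal cells and lymphatic endothelium that rises in the inflamed synovium. CD45, encoded by Ptprc, marks blood-derived cells, and Gr-1 marks neutrophils and monocytes through Ly6g and Ly6c. The synovial membrane has a lining layer, whose fibroblasts secrete lubricin (Prg4), above a sublining with matrix-rich and vessel-associated fibroblasts.

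Each group was 1 droplet library. The gate, the library and the software version (Cell Ranger 5.0.0 for the FAP-sorted and 6.0.0 for the unsorted library) therefore cannot be told apart, and the SD between animals does not contain a library effect. Counts of whole libraries include the healthy animal on the unsorted side. The libraries held 11847 barcodes with 157528632 UMIs (unique molecular identifiers, counted RNA molecules) and 11827 barcodes with 149149135 UMIs. Fibroblast UMIs per animal were 13695149 to 28874555 and 12952645 to 33132051. Of all barcodes, 35 occurred in both libraries, and so did 6 of the compared fibroblasts (0.102% of the FAP-sorted ones). Median mitochondrial UMIs per animal were 3.16% ± 0.149 (SD, n = 5) in FAP-sorted and 2.32% ± 0.036 (n = 3) in unsorted fibroblasts, and the deposited stress score was 0.233 ± 0.102 and 0.729 ± 0.083. Hashtag counts per cell were 73.2 ± 14.4 and 706 ± 137. For each of these 3 measures the two-sided exact permutation test gave p = 0.0179 (adjusted 0.0248 over 25 quality tests), the smallest value that the 56 splits of 5 against 3 animals allow. The animal's own hashtag was the highest in at least 96.7% of the cells of each animal. Xist and the Y-linked genes marked 2 males and 3 females among the FAP-sorted and 1 male and 2 females among the unsorted animals. All 10 core fibroblast markers, among them Col1a1, Pdgfra and Thy1, were detected in both groups, with summed levels of 35773 to 47083 and 29280 to 31104 CPM (counts per 1000000 UMIs, with TMM-scaled library sizes for single genes).

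The annotated classes carried their markers: in both groups the pooled level of Prg4 and Clic5 was highest in lining, of Mmp3 in Mmp3+, of Il6 in Il6+, of Cd200 in Cd200+ and of Pi16 in Pi16+ fibroblasts. Prg4, for example, was at 32684 CPM in FAP-sorted lining fibroblasts and at 5074 CPM or less in the other FAP-sorted classes.

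The sorted cells held a different mix of classes. Pi16+ fibroblasts, an adventitial and perivascular type, made up 7.51, 11.1, 5.17, 7.63 and 11.2% of the fibroblasts of the 5 FAP-sorted animals, and 1.4, 0.933 and 1.25% of those of the 3 unsorted animals. The difference was 7.32 percentage points, and the groups did not overlap. The larger class held less of its naming gene: within Pi16+ fibroblasts Pi16 was 1421 to 1820.1 CPM in FAP-sorted and 2941 to 4905 CPM in unsorted animals, and over all fibroblasts its log2 difference was -0.17 ± 0.16 (SE; adjusted p = 0.406), not past the threshold. How the class was bounded is not stated in the deposited files. Mmp3+ fibroblasts, named for the matrix protease stromelysin, held 61.5% ± 9.93 (SD, n = 5) against 38.8% ± 3.70 (n = 3). Their range was 51.5% to 73.6% in FAP-sorted and 36.1% to 43.01% in unsorted animals. Il6+ fibroblasts, named for interleukin 6, held 19.2% ± 5.46 against 47.8% ± 4.64, and lining fibroblasts 3.58% ± 0.669 against 6.14% ± 0.48. The animals of the groups did not overlap for any of these 4 classes. Two-sided exact permutation p-values over 56 splits were 0.0179 for Pi16+, Il6+ and lining and 0.0357 for Mmp3+ fibroblasts, with adjusted p of 0.0298, 0.0298, 0.0298 and 0.0446 over the 5 classes. Cd200+ fibroblasts held 7.22% ± 2.67 and 6.03% ± 1.5, a difference within the spread between animals (exact permutation p = 0.482). By UMIs in place of cells, Mmp3+ fibroblasts held 74.4% and 52.7%, Il6+ fibroblasts 12.9% and 33.6%, and Pi16+ fibroblasts 5.28% and 0.964%. Shares sum to a whole, so the classes are not independent of each other. Without any 1 of the unsorted animals no class passed an adjusted permutation p of 0.05 (lowest 0.0595). Too few splits then remain for these 4 classes to pass even without any overlap, so these fits cannot decide whether the shares depend on 1 unsorted animal. Without FAP-sorted animal 1 the threshold could be reached, and no class passed it (lowest 0.0714). Without FAP-sorted animal 2 or 3 the adjusted p of these 4 classes was 0.0357. The directions stayed in each case.

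**Figure D1:**
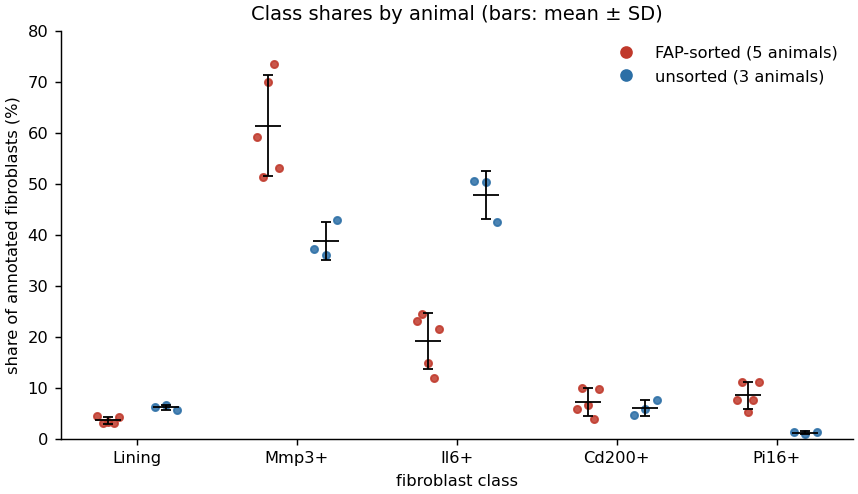
Share of each fibroblast class among the annotated fibroblasts of each animal, in percent. Points are animals (red FAP-sorted, blue unsorted), bars are means with SD. Pi16+ shares lie between 5.17% and 11.2% in FAP-sorted and between 0.933% and 1.4% in unsorted animals.

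Outside the fibroblast classes, chondrocytes made up 2.82% ± 1.48 of the annotated FAP-sorted cells and 7.12% ± 2.02 of the unsorted ones, and osteoblasts 4.15% ± 1.08 and 2.24% ± 0.663. Barcodes with at least 2 UMIs of both Pecam1 and Cdh5, endothelial junction genes, numbered 3 of 11847 in the FAP-sorted library and 393 of 11827 in the unsorted library. Keratin pairs (Krt5 and Krt14) were found in 0 and 62 barcodes and mural pairs (Rgs5 and Mcam) in 2 and 40. A count of 0 allows a share of up to 0.0311% (upper exact binomial limit). Leukocyte pairs (Ptprc and Laptm5) went the other way, with 51 and 15. These counts compare 2 libraries, of which the unsorted one includes the healthy animal, and have no replicate test.

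Transcripts of the gate proteins moved in opposite directions. Fap RNA (mm10 chr2:62500943-62574075, minus strand) was 75.6, 82.6, 75.6, 91.8 and 84.1 CPM in the 5 FAP-sorted animals and 55.99, 54.1 and 55.01 CPM in the 3 unsorted ones. The animals of the groups did not overlap for 41.9% of all genes. For Fap all 5 FAP-sorted animals lay above all unsorted ones, with a log2 fold change of 0.58 ± 0.07 (SE; adjusted p = 0.000348) by edgeR's quasi-likelihood test with Benjamini-Hochberg adjustment, which is the test behind every fold change below unless another is named. Pdpn RNA (mm10 chr4:143267431-143299564, minus strand) was 274, 274, 222, 236 and 245 CPM in FAP-sorted animals 1 to 5 and 451, 355 and 374 CPM in unsorted animals 1 to 3. Here every FAP-sorted animal lay below every unsorted one, with -0.65 ± 0.10 (SE; adjusted p = 0.000652). Within classes, Fap rose by 0.53 ± 0.08 (SE; adjusted p = 0.000953) in Mmp3+ and by 0.71 ± 0.11 (SE; adjusted p = 0.000875) in Il6+ fibroblasts. Its change was 0.47 ± 0.23 (SE; adjusted p = 0.226) in lining and -0.26 ± 0.14 (SE; adjusted p = 0.313) in Cd200+ fibroblasts, neither past the threshold. The classes did not differ beyond the threshold in the change of Fap (limma F test, adjusted p = 0.0871). Pdpn fell by 0.49, 0.59 and 0.47 on the log2 scale in lining, Mmp3+ and Il6+ fibroblasts. With 32 cells of each class per animal the log2 difference of Fap was 0.08 (adjusted p = 0.714). On a scaling over all 17 animals of the series, Fap lay above and Pdpn below its level in each of the 9 arthritic animals of the unsorted libraries, inhibitor-treated ones included.

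**Figure D2:**
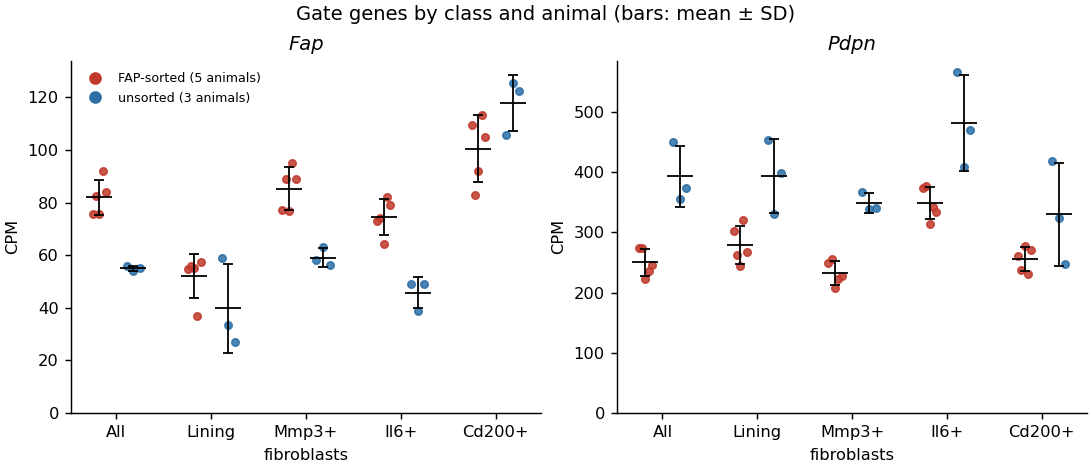
CPM of Fap and Pdpn per animal, for all fibroblasts and for 4 classes. Points are animals (red FAP-sorted, blue unsorted), bars are means with SD, and both axes start at 0. For all fibroblasts, Fap lies at 75.6 to 91.8 CPM in FAP-sorted and 54.1 to 55.99 CPM in unsorted animals, while Pdpn is lower in every FAP-sorted animal.

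Counted per cell, with each cell thinned to 5000 UMIs, Fap was detected in 27.6, 29.1, 28.2, 33.2 and 32.02% of FAP-sorted fibroblasts and in 22.5, 19.3 and 22.04% of unsorted ones. Pdpn was detected in 64.8% ± 1.58 (SD, n = 5) and 71.2% ± 2.78 (n = 3). For both genes the exact permutation test, two-sided, gave p = 0.0179 and an adjusted p of 0.0446 over 10 tests. Within Mmp3+ fibroblasts Fap was found in 32.1% ± 2.16 and 22.6% ± 2.05 and Pdpn in 63.04% ± 2.78 and 72.3% ± 2.94 (adjusted permutation p = 0.0446 for both). Lower Pdpn detection passed the test in no other class. Pdpn was found in 68.3% ± 8.82 and 69.2% ± 6.51 of lining, 72.7% ± 2.90 and 72.3% ± 2.52 of Il6+ and 65.1% ± 6.77 and 56.7% ± 2.51 of Cd200+ fibroblasts (adjusted permutation p = 0.964, 0.853 and 0.112). Fap was found in 20.3% ± 3.02 and 12.99% ± 3.89 of lining and 26.5% ± 6.03 and 18.6% ± 4.34 of Il6+ fibroblasts, also short of the threshold (adjusted permutation p = 0.0893 and 0.112). In Cd200+ fibroblasts the Fap values were 31.3% ± 5.44 and 41.97% ± 4.8 (adjusted permutation p = 0.0893), lower and not higher in the sorted cells. Thinning left out 448 FAP-sorted and 326 unsorted cells that were shallower. In unthinned cells, Fap was found in 57.3% ± 7.05 and 44.7% ± 1.74 and Pdpn in 87.04% ± 3.37 and 87.2% ± 0.938, with adjusted permutation p-values of 0.119 and 1.0. A UMI of both genes was present in 19.7% ± 1.80 of thinned FAP-sorted cells and 15.04% ± 1.46 of unsorted cells (exact permutation p = 0.0357, not adjusted). Neither gene had a UMI in 24.9% ± 0.932 of FAP-sorted and 22.6% ± 2.95 of unsorted cells (exact permutation p = 0.107, not adjusted). Background was measured in unannotated barcodes of the unsorted library with at least 5000 UMIs. They held RNA of the endothelial genes Pecam1, Cdh5 and Kdr and none of Prox1, a lymphatic gene. A Fap UMI was present in 2.34% of them (5 of 214) and a Pdpn UMI in 12.1% (26 of 214). Their median depth was 15169 UMIs before thinning. Some of them may still be lymphatic cells, which carry Pdpn, and this was not tested. The FAP-sorted library had 1 such barcode and therefore no background value. Fibroblast medians before thinning were 15611 UMIs in FAP-sorted and 15242 in unsorted animals. Within classes the FAP-sorted medians were lower, 15087 and 22052 in lining, 19006 and 22261 in Mmp3+, 9203 and 10535 in Il6+ and 7207 and 10932 in Cd200+ fibroblasts (adjusted permutation p = 0.0248, 0.142, 0.0893 and 0.0248).

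Across all fibroblasts, 5751 of 13418 genes (42.9%) passed an adjusted p of 0.05, 2862 higher and 2889 lower in FAP-sorted cells. The median log2 fold change of all genes was -0.0052. Holding the class fixed, 37.7% of genes were called in Mmp3+ fibroblasts (4807 of 12765), 25.6% in Il6+ (2522 of 9839), 8.44% in lining (565 of 6692) and 2.85% in Cd200+ fibroblasts (201 of 7055). The cells behind these counts were fewest in lining (209 FAP-sorted and 292 unsorted) and Cd200+ fibroblasts (413 and 302), so the counts are not a measure of how strongly a class differed. Without unsorted animal 2 or 3, lining calls dropped to 225 and 230 and Cd200+ calls to 67 and 58. Without FAP-sorted animal 3, lining calls were 337, and without FAP-sorted animals 2, 3, 4 or 5 the Cd200+ calls were 107, 94, 116 and 85. The Il6+ count was 1561 without unsorted animal 3. When every animal was given the same number of cells of each class, 4063 of 12216 genes were still called, 3710 of them among the 5751.

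One model over the 4 classes with enough cells, with the animal as a block, gave an effect shared by classes (limma, voom weights). It called 5808 of 10847 genes (53.5%), 26.9% higher and 26.7% lower. Its p-values treat the class sums of 1 animal as nearly independent (consensus correlation 0.0707), so they are too small where animals differ in all classes at once. A test on 1 sum per animal with 32 cells from each of these classes called 1092 of 9313 genes, 619 higher and 473 lower. Of these, 1063 were shared with the former, and its list counts are given beside those of the model. Each list count is to be read beside the all-gene values of its test.

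FAP-sorted against TNF-inhibited animals gave 37.8% of genes called and against IL-17-inhibited animals 40.5%, over all fibroblasts. Each is a comparison of the sorted library with 1 unsorted library. Among unsorted libraries, calls were 3.92% for TNF-inhibited against untreated, 14.3% for IL-17-inhibited against untreated and 3.55% between the inhibitors, each with 3 animals a side. With only hashtags 1 to 3 of the FAP-sorted library, also 3 animals a side, 34.1% were called. These comparisons share animals and are given as counts.

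Genes of collagens and fibrous matrix were mostly higher in the sorted cells. In the shared effect, 23 of 32 were higher and 1 lower, with a median log2 fold change of 0.48, against 26.9% and 26.7% of all genes and a median of -0.01. The test with equal cells per class called 15 higher and 0 lower. Col1a1 (mm10 chr11:94936224-94953042), a chain of type I collagen, was 5365, 4459, 7297, 9146 and 5516 CPM with sorting and 2564, 2439.8 and 2724 CPM without. No FAP-sorted animal overlapped the unsorted ones, and the log2 fold change was 1.30 ± 0.21 (SE; adjusted p = 0.000936). Within classes it rose by 1.36 ± 0.18 (SE; adjusted p = 0.000458) in Mmp3+, 1.16 ± 0.18 (SE; adjusted p = 0.0016) in lining and 0.78 ± 0.13 (SE; adjusted p = 0.00111) in Il6+ fibroblasts. In Cd200+ fibroblasts it was 2012 to 4614 CPM in FAP-sorted and 2955 to 3221 CPM in unsorted animals, overlapping, with 0.08 ± 0.19 (SE; adjusted p = 0.847). Col3a1, the type III collagen chain of loose tissue, and Sparc, a collagen-binding secreted protein, rose by 1.19 ± 0.20 (SE; adjusted p = 0.00128) and 1.35 ± 0.15 (SE; adjusted p = 0.000214) over all fibroblasts. Col11a1, which nucleates thin cartilage and tendon fibrils, rose by 2.08 ± 0.21 (SE; adjusted p = 0.000124) in Mmp3+ fibroblasts, while its change in Il6+ fibroblasts was 0.22 ± 0.27 (SE; adjusted p = 0.585). Thbs1, thrombospondin-1, was the gene called lower, and fell by 1.30 on the log2 scale over all fibroblasts and by 1.64 in Il6+ fibroblasts. It was not called in lining, Mmp3+ or Cd200+ fibroblasts, and its shared effect was lost with equal cells per class (-0.80, adjusted p = 0.131), with classes at equal weight (-0.44, adjusted p = 0.0527) and without FAP-sorted animal 5 (-0.57, adjusted p = 0.0524) or unsorted animal 2 (-0.40, adjusted p = 0.166). Dcn, decorin, a small proteoglycan that binds collagen, fell by 0.30 in Mmp3+ fibroblasts (adjusted p = 0.014). By class, 22 of 29 matrix genes were higher in lining (14 of 30 without unsorted animal 2), 19 of 32 in Mmp3+, 16 of 32 in Il6+ and 0 of 32 in Cd200+ fibroblasts, and 0, 1, 1 and 0 were lower. The higher ones stand beside 5.14%, 19.2%, 13.4% and 1.45% of all genes called higher. The number of cells differed between these classes, as given above.

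Cthrc1, a secreted protein of matrix-producing fibroblasts, was 108, 95.9, 117, 183 and 81.7 CPM in the 5 FAP-sorted animals and 21.3, 22.9 and 19.2 CPM in the 3 unsorted ones. Its lowest FAP-sorted value was more than 3 times its highest unsorted value, and the log2 fold change was 2.48 ± 0.24 (SE; adjusted p = 0.000121). In Mmp3+ fibroblasts it was 95.2 to 199.9 CPM in FAP-sorted and 19.3 to 24.3 CPM in unsorted animals and rose by 2.63 ± 0.22 (SE; adjusted p = 4.81e-05). In Cd200+ fibroblasts its values overlapped (42.8 to 58.99 CPM in FAP-sorted and 26.7 to 81.2 CPM in unsorted animals). On a scaling over all 17 animals, Cthrc1 was 85.1 to 195 CPM in FAP-sorted animals and did not exceed 30.02 CPM in any of the 9 arthritic animals of the unsorted libraries. Acta2, smooth muscle actin of contractile fibroblasts, rose by 1.09 ± 0.28 (SE; adjusted p = 0.0115) over all fibroblasts and 0.72 ± 0.23 (SE; adjusted p = 0.0325) in Mmp3+ fibroblasts, and its change in Il6+ fibroblasts was 0.32 ± 0.27 (SE; adjusted p = 0.425). Without unsorted animal 2 the value of Acta2 over all fibroblasts was 0.93 (adjusted p = 0.0555). With the same class counts in every animal it was 0.76 (adjusted p = 0.0796), and with equal cells per class 0.16 (adjusted p = 0.799). Of the 15 measured myofibroblast and TGF-beta genes, 8 were higher and 1 lower in the shared effect, against 26.9% and 26.7% of all genes. Their median was 0.31, and 2 of 13 were higher in the test with equal cells per class. Chaperones and carriers of the endoplasmic reticulum were a list chosen after these results were seen. In the shared effect 11 of 15 were higher and 0 lower, with a median of 0.32, against 26.9% and 26.7% of all genes. With equal cells per class 6 were higher, against 619 of 9313 genes.

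**Figure D3:**
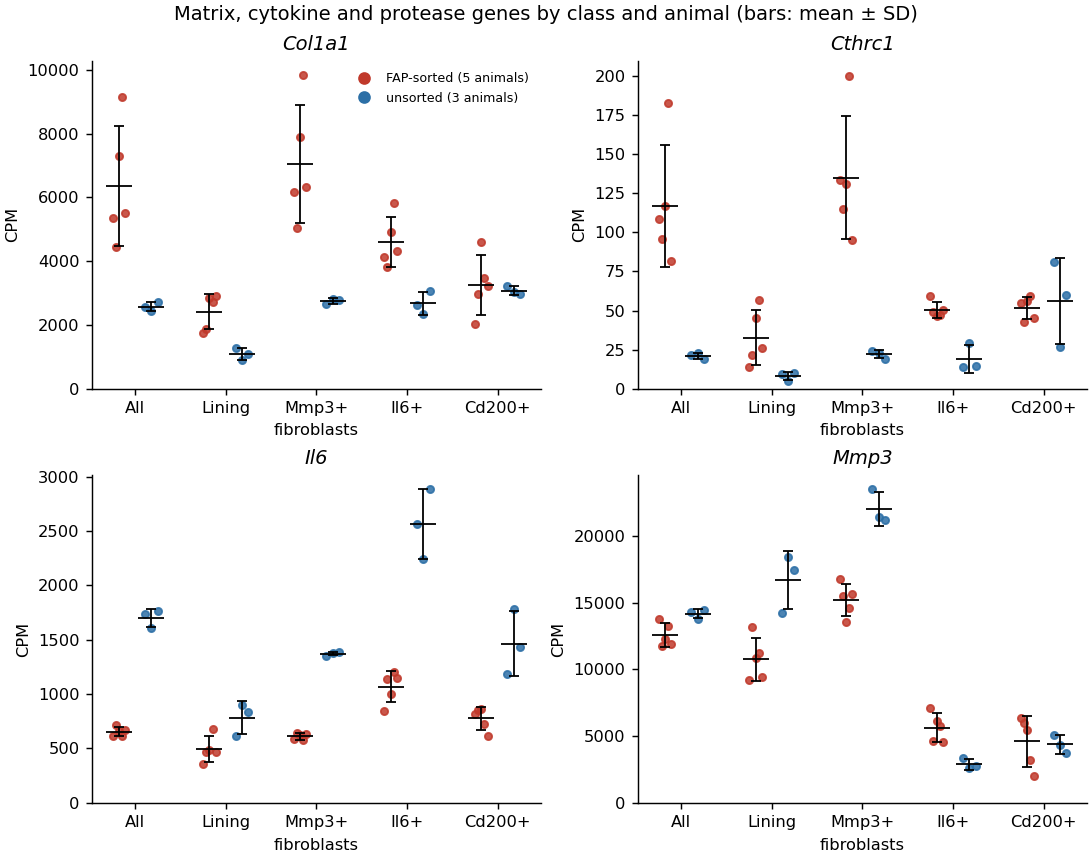
CPM per animal of Col1a1 and Cthrc1 (matrix), Il6 (cytokine) and Mmp3 (protease), for all fibroblasts and 4 classes. Points are animals (red FAP-sorted, blue unsorted), bars are means with SD, and all axes start at 0. Col1a1 and Il6 separate the groups in Mmp3+ and Il6+ fibroblasts, and Mmp3 is lower in FAP-sorted Mmp3+ and higher in FAP-sorted Il6+ fibroblasts.

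Of the sublining genes, 7 of 15 were higher and 0 lower in the shared effect, against 26.9% and 26.7% of all genes, and 7 of 14 were higher in the test with equal cells per class. Over all fibroblasts 4 of 15 were higher and 1 lower (Sema3c), with a median of 0.09, against 21.3% and 21.5% of all genes. Their summed level overlapped, at 6938 to 10369 CPM in FAP-sorted and 8797 to 9981 CPM in unsorted animals. Cd248, endosialin, a glycoprotein of sublining fibroblasts and pericytes, was 90.4, 83.2, 107, 148 and 102 CPM in FAP-sorted animals 1 to 5 and 42.4, 39.98 and 43.5 CPM in unsorted animals 1 to 3. The groups did not overlap, and Cd248 rose by 1.34 ± 0.17 (SE; adjusted p = 0.00031) over all fibroblasts and by 2.24 ± 0.30 (SE; adjusted p = 0.000526) in lining fibroblasts. Gas6, a ligand of TAM receptors, rose by 1.22 ± 0.15 (SE; adjusted p = 0.00029) in lining and 0.76 ± 0.10 (SE; adjusted p = 0.000346) in Mmp3+ fibroblasts. Sfrp2, a secreted modulator of Wnt signalling, was 109, 191, 133, 307 and 172 CPM with sorting and 68.4, 39.7 and 51.1 CPM without. It rose by 1.79 ± 0.32 (SE; adjusted p = 0.00168), and by 3.02 ± 0.36 (SE; adjusted p = 0.000281) within Mmp3+ fibroblasts, where it was 95.99 to 292 CPM in FAP-sorted and 16.1 to 22.4 CPM in unsorted animals. With equal cells per class Sfrp2 was at 1.19 and not past the threshold (adjusted p = 0.162). The related Sfrp1 and Sfrp4 rose by 1.29 and 1.19 over all fibroblasts (adjusted p = 0.00216 and 0.00349), and Axin2, a target of canonical Wnt signalling, fell by 0.96 (adjusted p = 0.00539). In cells thinned to 5000 UMIs Axin2 was at -0.74 (adjusted p = 0.0768). Of 12 measured Wnt and Notch genes, 3 were higher and 5 lower in the shared effect, against 26.9% and 26.7% of all genes. Of 10 in the test with equal cells per class 2 were higher and 0 lower.

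Several of the most raised abundant genes belong to no fixed list. Mmp23, a membrane-bound metalloproteinase, was 82.5, 64.4, 97.5, 129.6 and 80.6 CPM in the 5 FAP-sorted animals and 33.7, 29.3 and 30.4 CPM in the 3 unsorted ones, and rose by 1.55 ± 0.19 (SE; adjusted p = 0.000318). It was higher past the threshold in each of the 4 classes tested. Mfap2, a microfibril glycoprotein, rose by 1.45 ± 0.14 (SE; adjusted p = 0.000119). Ctla2a, related to cysteine protease propeptides, was 559, 600.2, 1582, 954 and 1233 CPM in FAP-sorted animals 1 to 5 and 303, 114 and 132 CPM in unsorted animals 1 to 3, and rose by 2.44 ± 0.43 (SE; adjusted p = 0.0017). Unsorted animal 1 had the highest Ctla2a of its group and lay below every FAP-sorted animal. Nt5dc2, a nucleotidase-domain gene, rose by 1.94 ± 0.20 (SE; adjusted p = 0.000166), and Kng2, a kininogen, by 1.65 ± 0.13 (SE; adjusted p = 4.07e-05). H19, an imprinted noncoding RNA (mm10 chr7:142575529-142578143, minus strand), was 31.3, 43.5, 67.6, 144 and 78.5 CPM with sorting and 10.8, 8.05 and 11.2 CPM without. FAP-sorted animal 4 had the highest H19. In Mmp3+ fibroblasts H19 was 28.1 to 153 CPM in FAP-sorted and 1.22 to 2.17 CPM in unsorted animals, with a log2 fold change of 5.26 ± 0.68 (SE; adjusted p = 0.000404).

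A part of the cytokine and chemokine genes was lower in the sorted cells. In the shared effect, 10 of 21 were lower and 0 higher, with a median of -0.37, against 26.7% and 26.9% of all genes, and the test with equal cells per class called 4 lower and 1 higher. Summed over the list, the level was 13507 to 14369 CPM in FAP-sorted and 20608 to 25707 CPM in unsorted animals. Il6 (mm10 chr5:30013114-30019981), the cytokine that activates gp130 signalling, was 612, 714, 657, 616 and 674 CPM in the 5 FAP-sorted animals and 1734, 1607 and 1761 CPM in the 3 unsorted ones. Its highest FAP-sorted value was below its lowest unsorted value, and it fell by 1.38 ± 0.07 (SE) on the log2 scale (adjusted p = 9.97e-07). Within classes it fell by 0.67 in lining, 1.16 in Mmp3+ and 0.92 in Cd200+ fibroblasts, with adjusted p-values of 0.0278, 1.75e-06 and 0.00415. In the class that bears its name it was 846 to 1202 CPM in FAP-sorted and 2244 to 2887 CPM in unsorted animals, and the deposited files do not say how that class was bounded. Lif, of the same cytokine family, fell by 1.30 ± 0.13 (SE; adjusted p = 0.000151). Cxcl1 and Cxcl2, ligands of the neutrophil receptor Cxcr2, fell by 0.82 and 1.38 (adjusted p = 0.000227 and 0.000989). Cxcl2 was 403, 291, 407, 372 and 282 CPM in FAP-sorted animals 1 to 5 and 1341, 607 and 805 CPM in unsorted animals 1 to 3, with unsorted animal 1 the highest. Ccl11, eotaxin, was 21.8 to 45.3 CPM in FAP-sorted and 141 to 160.3 CPM in unsorted animals, and fell by 2.23 (adjusted p = 5.68e-05). Ccl20, a ligand of Ccr6, went the other way over all fibroblasts, at 75.9 to 248 CPM in FAP-sorted and 57.8 to 74.9 CPM in unsorted animals, and rose by 1.10 ± 0.37 (SE; adjusted p = 0.0346), while it passed the threshold in none of the classes where it was tested. The lower deposited stress score of FAP-sorted cells moved with these genes, and its part was not tested.

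NF-kB, the transcription factor that TNF and IL-17 activate, drives many of these cytokines, and a set of its targets acts as feedback. Of 16 NF-kB feedback genes, 9 were lower and 2 higher in the shared effect, against 26.7% and 26.9% of all genes. Their median was -0.21, while the test with equal cells per class called 1 lower. Tnfaip2, a TNF-induced gene, was 289.9, 329, 262, 202 and 275 CPM with sorting and 552, 551 and 651 CPM without, without overlap, and fell by 1.11 (adjusted p = 0.00026). Tnfaip3, which encodes the A20 deubiquitinase, fell by 0.48 (adjusted p = 0.00329), and Zc3h12a, an RNase that destroys cytokine messages, by 0.80 (adjusted p = 0.0011). Thbd, thrombomodulin, was 67.3 to 103 CPM in FAP-sorted and 274 to 323 CPM in unsorted animals, and fell by 1.36 in Il6+ and 0.96 in Mmp3+ fibroblasts. The promoters of Il6 and Cxcl2 are printed because most of the lower cytokine genes with a known promoter hold the same match (RefSeq, build GRCm38.p6, the 250 bases before the start, 5′ to 3′ on the gene's strand). Capitals mark matches to the NF-kB consensus on either strand. The windows are chr5:30012864-30013113 for Il6 and chr5:90903649-90903898 for Cxcl2, both on the plus strand.
Il6: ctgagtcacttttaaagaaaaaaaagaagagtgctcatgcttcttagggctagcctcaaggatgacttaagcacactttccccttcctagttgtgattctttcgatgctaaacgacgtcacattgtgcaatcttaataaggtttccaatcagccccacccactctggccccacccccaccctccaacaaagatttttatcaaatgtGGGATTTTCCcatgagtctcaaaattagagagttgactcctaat
Cxcl2: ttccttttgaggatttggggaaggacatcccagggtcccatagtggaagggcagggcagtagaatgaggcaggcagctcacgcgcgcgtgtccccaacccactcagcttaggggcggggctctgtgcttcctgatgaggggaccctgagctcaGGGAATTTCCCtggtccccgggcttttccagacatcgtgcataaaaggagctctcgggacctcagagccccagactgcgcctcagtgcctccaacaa
The match begins 44 bases before the start of Il6, and 2 overlapping matches begin 97 and 96 bases before the start of Cxcl2. Of the 10 cytokine genes called lower, 6 had a promoter in the table, and 5 of them (Csf1, Cxcl1, Cxcl2, Il6 and Lif) held the consensus on either strand. It occurred in 2382 of 32851 promoter windows of that length (7.25%) and in 2 of 15 matched matrix genes called higher. Promoters of the cytokine genes that were not called were not counted, so the match cannot be tied to being lower.

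Interferon-response genes were lower in the sorted cells, but their number depended on single animals. In the shared effect, 14 of 23 were lower and 0 higher, with a median of -0.61, against 26.7% and 26.9% of all genes. This count was 9 without unsorted animal 3, whose interferon genes were the highest of the unsorted animals at 2536 CPM in sum, against 1261 and 1686 CPM in the others and 566 to 1497 CPM in FAP-sorted animals. The test with equal cells per class called 0 of 21, with a median of -0.46. Over all fibroblasts, 16 of 24 were lower and 1 higher, and the lower ones numbered 3 without unsorted animal 3, 8 without unsorted animal 2 and 10 without FAP-sorted animal 1. Rsad2, viperin, an antiviral enzyme, was 0.85, 1.04, 1.41, 1.82 and 2.41 CPM in the 5 FAP-sorted animals and 8.07, 7.10 and 7.03 CPM in the 3 unsorted ones, without overlap, and fell by 2.27 ± 0.24 (SE; adjusted p = 0.000183). Usp18, which removes ISG15, fell by 1.12 (adjusted p = 0.00262), and Ifit3, an RNA-binding antiviral protein, by 1.25 (adjusted p = 0.00858). Without unsorted animal 3, Ifit3 was at -0.97 (adjusted p = 0.0551) and Gbp5 at -0.94 (adjusted p = 0.0542). Guanylate-binding protein Gbp5 was 22.8, 42.00, 43.7, 16.5 and 29.8 CPM in FAP-sorted animals 1 to 5 and 45.3, 72.4 and 110.0 CPM in unsorted animals 1 to 3. FAP-sorted animals 1 and 4 were low and unsorted animal 3 high, and the highest animal of each group had more than 2 times the Gbp5 of the lowest. Its log2 fold change was -1.31 ± 0.32 (SE; adjusted p = 0.00868). By class, 11 of 24 genes were lower in Mmp3+, 10 of 23 in Il6+, 3 of 18 in lining and 0 of 19 in Cd200+ fibroblasts, against 18.5%, 12.2%, 3.3% and 1.4% of all genes. Without unsorted animal 3 the Mmp3+ and Il6+ counts were 2 and 1.

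Promoters of 3 of these interferon-response genes are shown for the motif they share, the core of the interferon-stimulated response element. It was sought on both strands as GAAA, 2 further bases of any kind (NN) and again GAAA, and is marked by capitals. They come from RefSeq (GRCm38.p6) and hold the 250 bases before the start. The windows are chr12:26456453-26456702 on the minus strand for Rsad2, and chr19:34583279-34583528 and chr3:142559794-142560043 on the plus strand for Ifit3 and Gbp3.
Rsad2: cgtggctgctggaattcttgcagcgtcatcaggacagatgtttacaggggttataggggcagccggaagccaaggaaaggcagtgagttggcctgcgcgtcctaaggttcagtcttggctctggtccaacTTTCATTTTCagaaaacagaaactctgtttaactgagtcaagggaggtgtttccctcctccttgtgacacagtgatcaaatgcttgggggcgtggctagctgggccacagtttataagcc
Ifit3: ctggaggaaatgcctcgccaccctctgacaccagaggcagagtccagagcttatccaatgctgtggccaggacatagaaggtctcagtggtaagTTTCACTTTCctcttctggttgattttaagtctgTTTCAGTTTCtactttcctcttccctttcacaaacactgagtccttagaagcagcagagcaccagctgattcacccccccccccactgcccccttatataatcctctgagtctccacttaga
Gbp3: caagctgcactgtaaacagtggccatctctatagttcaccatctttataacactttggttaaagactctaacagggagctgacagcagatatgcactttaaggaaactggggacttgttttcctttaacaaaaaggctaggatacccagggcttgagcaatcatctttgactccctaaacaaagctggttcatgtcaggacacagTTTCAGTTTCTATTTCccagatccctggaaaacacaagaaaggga
The motif begins 120 bases before the start of Rsad2, 156 and 122 bases before that of Ifit3, and, overlapping itself, 45 and 39 bases before that of Gbp3. A further listed start of Gbp3 had none. The lower call of Gbp3 over all fibroblasts was lost without unsorted animal 2 (-0.93, adjusted p = 0.0865) or 3 (-0.50, adjusted p = 0.266) and in further settings. With equal cells per class Gbp3 was at -0.70 (adjusted p = 0.308). Of the 14 genes called lower, 11 had a promoter in the table and 8 of these held the motif in at least 1 window, against 978 of 32851 windows (2.98%). Promoters of the interferon-response genes that were not called were not counted, so the match cannot be tied to being lower. A match describes letters only.

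Of 18 IL-17 and acute-phase genes, 3 were higher (Hp, Saa3 and Il17rc) and 9 lower in the shared effect, against 26.9% and 26.7% of all genes. In the test with equal cells per class 2 were higher and 3 lower. Those lower in the shared effect were Il6, Cxcl1, Zc3h12a, Cebpb, Nfkbiz, Steap4, Il17ra, Traf3ip2 and Saa2, of which only Saa2 encodes an acute-phase protein. Il17ra is a chain of the IL-17 receptor, Traf3ip2 its adaptor, and Cebpb and Nfkbiz are transcriptional regulators of the response. Steap4, a metalloreductase, was 259 to 337 CPM in FAP-sorted and 414 to 489 CPM in unsorted animals and fell by 0.64 (adjusted p = 0.000588). Saa2, a serum amyloid, was 39.4 to 78.1 CPM in FAP-sorted and 99.2 to 140.3 CPM in unsorted animals and fell by 0.77 (adjusted p = 0.0108), while the related Saa1 overlapped, at -0.61 ± 0.24 (SE; adjusted p = 0.0627). Saa3, the serum amyloid made outside the liver, was 56216, 51876, 62974, 54411 and 58941 CPM with sorting and 45129, 37749 and 36688 CPM without, and rose by 0.51 ± 0.09 (SE; adjusted p = 0.00164). Its change was 0.16 in Mmp3+ fibroblasts, not past the threshold, and it rose by 1.74 in Il6+ fibroblasts (adjusted p = 0.000216). Lcn2, lipocalin-2, and Orm1, orosomucoid, were at 0.27 ± 0.12 (SE; adjusted p = 0.0825) and 0.02 ± 0.15 (SE; adjusted p = 0.911) over all fibroblasts, and rose by 1.21 and 1.23 in Il6+ fibroblasts (adjusted p = 0.000437 and 0.0379). Hp, haptoglobin, a haemoglobin-binding acute-phase protein, was 11710.4, 9902, 11847, 9964 and 10384 CPM in the 5 FAP-sorted animals and 4242, 5789.6 and 4104 CPM in the 3 unsorted ones, without overlap, and rose by 1.19 ± 0.12 (SE; adjusted p = 0.000168). The size of its rise differed between classes (limma F test, adjusted p = 0.00897), from 0.38 in lining to 1.13 in Mmp3+, 1.83 in Il6+ and 1.77 in Cd200+ fibroblasts. Lrg1, which also differed between classes (adjusted p = 0.00349), a leucine-rich glycoprotein of the acute phase, and Slpi, a leukocyte protease inhibitor, rose by 0.69 and 1.59 over all fibroblasts (adjusted p = 0.0044 and 0.00043). For Hp, Lrg1 and Slpi the FAP-sorted values overlapped those of the 9 arthritic animals of the unsorted libraries when the inhibitor-treated animals were included.

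Mmp3 (mm10 chr9:7445822-7455975) changed in opposite directions in 2 classes. Over all fibroblasts it was 11744 to 13749.8 CPM in FAP-sorted and 13789 to 14449 CPM in unsorted animals, with -0.17 ± 0.07 (SE; adjusted p = 0.0695). In Mmp3+ fibroblasts it was 16748, 15507, 13589, 14579 and 15636 CPM in FAP-sorted animals 1 to 5 and 23495, 21435 and 21207 CPM in unsorted animals 1 to 3, and it fell by 0.54 ± 0.07 (SE; adjusted p = 0.000488). In Il6+ fibroblasts it was 7097, 4613, 6146, 5778 and 4518 CPM with sorting and 3324, 2582 and 2723 CPM without, and it rose by 0.97 ± 0.14 (SE; adjusted p = 0.000547). The animals did not overlap in either class, as held for 37.7% of all genes in Mmp3+ and 27.3% in Il6+ fibroblasts, and the class difference had an adjusted p of 0.00271. In lining fibroblasts Mmp3 fell by 0.63 (adjusted p = 0.00597). Mmp3 names a class, so the placing of the class boundary is part of these values. Among 16 matrix-degradation genes, 6 were higher and 4 lower in the shared effect, against 26.9% and 26.7% of all genes. With equal cells per class the counts were 2 and 4. Plau, urokinase, and Adamts4, aggrecanase 1, fell over all fibroblasts by 1.28 and 1.10 (adjusted p = 0.00192 and 0.000331). With the same class counts in every animal Adamts4 was at -0.29 (adjusted p = 0.192).

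In all, 70 of 10847 genes (0.645%) differed between classes in their change. Col1a2, the other chain of type I collagen, rose by 1.19 in lining, 1.18 in Mmp3+ and 0.52 in Il6+ fibroblasts, while in Cd200+ fibroblasts it was 3858 to 5696 CPM in FAP-sorted and 4734 to 5120.4 CPM in unsorted animals with an adjusted p of 0.999 (class difference, adjusted p = 0.00349). Fbln2, fibulin-2 of elastic fibres and basement membranes, rose by 1.38 ± 0.14 (SE; adjusted p = 7.94e-05) in lining, where it was 598 to 894 CPM in FAP-sorted and 264 to 302 CPM in unsorted animals. Its change in Mmp3+ fibroblasts was 0.26 ± 0.11 (SE; adjusted p = 0.0889). Acp5, the tartrate-resistant acid phosphatase of osteoclasts and some macrophages, rose by 0.90 in Mmp3+ and 0.91 in Il6+ fibroblasts and was at -0.64 ± 0.32 (SE; adjusted p = 0.219) in lining fibroblasts. Sox9, the chondrogenic transcription factor, fell by 0.98 in lining and 0.57 in Mmp3+ fibroblasts and was at 0.37 ± 0.14 (SE; adjusted p = 0.0712) in Il6+ fibroblasts. The change of Nt5dc2 ranged from 0.64 in lining, not past the threshold, to 2.23 in Il6+ fibroblasts, and 1110008P14Rik, an uncharacterised gene, likewise from 0.34 to 1.29. The number of such genes was 36 without FAP-sorted animal 3, and 29 and 23 without unsorted animals 2 and 3.

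**Figure D4:**
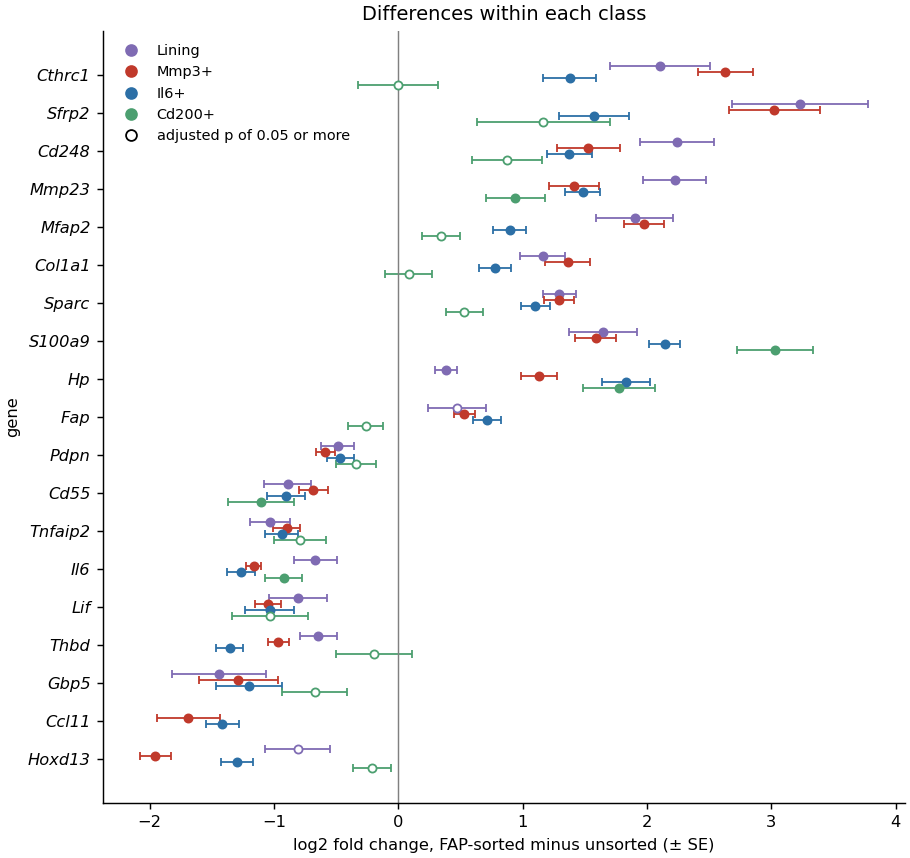
Log2 fold change, FAP-sorted minus unsorted, of 19 genes within each of 4 classes, with SE. Filled points passed an adjusted p of 0.05, and open points did not. Cthrc1 rises by 2.63 in Mmp3+ fibroblasts, and Il6 falls in all 4 classes.

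Over all fibroblasts, of which lining cells were a smaller share, 8 of 12 genes of the lining layer were lower and 1 higher, against 21.5% and 21.3% of all genes. Within lining fibroblasts 3 of 12 were lower, against 3.3% of all genes. The shared effect had 6 lower and 2 higher, against 26.7% and 26.9% of all genes, and the test with equal cells per class 2 lower and 0 higher. Cd55, a complement-regulating membrane protein of the lining, was 48.4, 50.03, 32.9, 43.1 and 39.5 CPM in the 5 FAP-sorted animals and 98.6, 69.8 and 82.01 CPM in the 3 unsorted ones. It fell by 0.89 in lining, 0.68 in Mmp3+, 0.90 in Il6+ and 1.11 in Cd200+ fibroblasts, each past the threshold. Clic5, a chloride channel protein of lining cells, fell by 1.43 in lining fibroblasts (adjusted p = 0.0398), and Itga6, a laminin-binding integrin, by 1.23 over all fibroblasts (adjusted p = 0.00265). As given above, lining cells were shallower in the FAP-sorted library. Cd200, a ligand that restrains myeloid cells, and Dkk3, a secreted Dickkopf-related protein, went apart. Cd200 was 13.9 to 20.5 CPM in FAP-sorted and 19.1 to 36.5 CPM in unsorted animals, with an overlap, and Dkk3 was 77.2 to 111 CPM in FAP-sorted and 48.9 to 58.7 CPM in unsorted animals, without one. Over all fibroblasts Cd200 fell by 0.82 (adjusted p = 0.00749), and Dkk3 rose by 0.80 (adjusted p = 0.000602). By class, Cd200 was called lower in Mmp3+ and not in Il6+ or Cd200+ fibroblasts. Dkk3 was called higher in lining, Mmp3+ and Il6+ and not in Cd200+ fibroblasts. The shared effect of Cd200 was lost with equal cells per class (-0.64, adjusted p = 0.0809) and with classes at equal weight (-0.65, adjusted p = 0.0653 by limma).

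Transcripts of other cell types within the annotated fibroblasts differed sharply. Acta1, skeletal muscle actin, had 7 UMIs in all FAP-sorted and 5004 UMIs in all unsorted fibroblasts. All 8 muscle genes were lower, and their sum was 2.58 to 3.87 CPM in FAP-sorted and 213 to 308 CPM in unsorted animals. The endothelial list summed to 11.6 to 20.01 and 27.7 to 31.5 CPM, with 1 of its 10 genes (Mmrn1) at 0 in FAP-sorted cells. The keratinocyte list summed to 19.5 to 28.9 and 35.8 to 43.3 CPM, with Krt5 at 0 UMIs in FAP-sorted and 75 in unsorted cells, at least 30.9-fold lower taking 3 counts over the group as the floor. The mural list summed to 49.8 to 71.3 CPM in FAP-sorted and to 76.05 to 81.1 CPM in unsorted animals. Neutrophil genes went up, with sums of 101 to 130 and 44.3 to 54.5 CPM. Among them S100a9, a calgranulin subunit, was 30.7, 35.9, 27.7, 28.97 and 33.99 CPM in FAP-sorted animals 1 to 5 and 11.1, 8.31 and 8.34 CPM in unsorted animals 1 to 3, and rose by 1.79 ± 0.12 (SE; adjusted p = 1.47e-05), and its partner S100a8 rose by 1.30 ± 0.07 (SE; adjusted p = 3.13e-06). Leukocyte genes summed to 27.9 to 61.8 and 13.9 to 23.9 CPM. Ptprc itself had 19 UMIs in all FAP-sorted and 6 in all unsorted fibroblasts, and Ly6g 7 and 0. How far such RNA lay in the fibroblasts or came from free RNA or doublets was not tested. Leaving all other-cell genes out of the fit called 5715 genes.

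**Figure D5:**
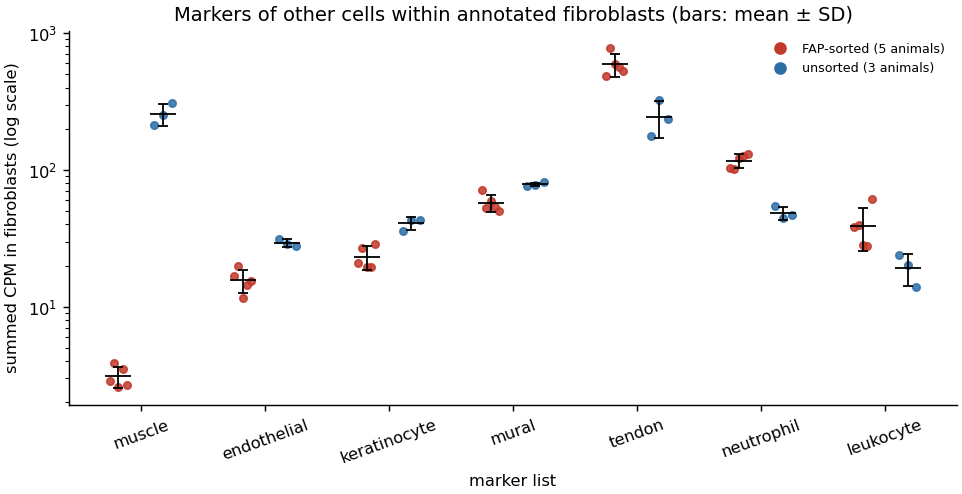
Summed CPM of marker lists of other cell types within the annotated fibroblasts of each animal, on a log scale. Points are animals (red FAP-sorted, blue unsorted), bars are means with SD. Muscle genes are at 2.58 to 3.87 CPM in FAP-sorted and 213 to 308 CPM in unsorted animals, while the sums of tendon and neutrophil genes are higher in FAP-sorted animals.

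The sum of the tendon markers was higher in the sorted cells, at 489 to 775 CPM against 177 to 324 CPM. Fmod held most of it, with 476 CPM in pooled FAP-sorted and 214 CPM in pooled unsorted fibroblasts. Fmod, fibromodulin, a collagen-binding proteoglycan, rose by 1.38 ± 0.23 (SE; adjusted p = 0.00111), and Scx, the tendon transcription factor scleraxis, by 1.37 ± 0.14 (SE; adjusted p = 0.000141). Tnmd, tenomodulin, was 65.8, 136, 57.7, 66.4 and 73.7 CPM with sorting and 27.9, 23.7 and 29.3 CPM without, with FAP-sorted animal 2 the highest, and rose by 2.57 ± 0.34 (SE; adjusted p = 0.000448) in Mmp3+ fibroblasts. Of 5 tendon genes, 3 were higher in the shared effect, against 26.9% of all genes, and 2 with equal cells per class. Mkx and Kera were not called, with pooled levels of 6.68 and 5.03 CPM in FAP-sorted and 6.72 and 5.30 CPM in unsorted fibroblasts. Acan, aggrecan of cartilage, rose by 3.41 ± 0.23 (SE; adjusted p = 1.21e-05) in Mmp3+ fibroblasts, where it was 22.98 to 40.8 CPM in FAP-sorted and 2.51 to 2.89 CPM in unsorted animals. The sum of the cartilage list overlapped (114 to 144 and 131 to 149 CPM). Sox9 held most of that sum, with 103 CPM in pooled FAP-sorted and 137 CPM in pooled unsorted fibroblasts, so the overlap says little of the other members.

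Genes that mark position in the limb differed between the groups. Hoxd13 (mm10 chr2:74668310-74671599), a homeobox gene of the distal limb, was 11.1, 12.3, 9.17, 6.09 and 11.01 CPM in the 5 FAP-sorted animals and 30.7, 31.1 and 28.99 CPM in the 3 unsorted ones, and fell by 1.64 ± 0.17 (SE; adjusted p = 0.000168). Its change differed between classes (adjusted p = 0.00349), from -1.95 in Mmp3+ to -0.21 in Cd200+ fibroblasts. Pitx1 (mm10 chr13:55825051-55836192, minus strand), a homeobox gene that specifies the hindlimb, was 13.4, 17.8, 17.03, 18.3 and 22.2 CPM in FAP-sorted animals 1 to 5 and 4.19, 4.57 and 4.26 CPM in unsorted animals 1 to 3, and rose by 2.02 ± 0.15 (SE; adjusted p = 2.61e-05). No FAP-sorted animal overlapped an unsorted one for either gene. In a list of 10 limb genes gathered after these 2 were seen, 9 were measured. In the shared effect 3 were higher and 4 lower, against 26.9% and 26.7% of all genes, and of 8 in the test with equal cells per class 3 were higher and 1 lower. The higher ones were Pitx1, Hoxc10 and Hoxc9, the latter pair from the HoxC cluster, of which Hoxc10 is known from the hindlimb. Hoxc10 was 12.2 to 17.8 CPM in FAP-sorted and 1.83 to 3.85 CPM in unsorted animals and rose by 2.30 ± 0.20 (SE; adjusted p = 7.15e-05). Hoxc9 was 6.76 to 9.18 CPM in FAP-sorted and 1.81 to 2.79 CPM in unsorted animals and rose by 1.74 (adjusted p = 0.000121). The lower ones were Tbx5, which specifies the forelimb, and Hoxd13, Hoxd11 and Hoxa13, which pattern the outer limb segments. Tbx5 was 0.372 to 0.927 CPM in FAP-sorted and 4.81 to 7.39 CPM in unsorted animals and fell by 3.07 (adjusted p = 3.81e-05). Hoxd11 and Hoxa13 fell by 0.92 and 1.01 (adjusted p = 0.000195 and 0.00139). Each of these 7 genes, picked by their calls, was without overlap between the groups, as held for 41.9% of all genes. Tbx4, a hindlimb counterpart of Tbx5, and Hoxa11, also of the list, were not among the called genes. Their plain log2 differences, without a test, were 0.096 and -0.072, and that of Hoxd12, the last of the list, was -1.93. The labels give ankle and wrist joints for both groups and no proportion of each, and the part of that proportion in these or other values was not tested.

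Stress and metabolic genes gave mixed results. Their counts in the shared effect stand beside 26.9% of all genes higher and 26.7% lower. Of 25 dissociation and immediate early genes, 3 were higher and 8 lower in the shared effect, with a median of 0.03, and 4 were lower without FAP-sorted animal 4. With equal cells per class 3 were higher and 1 lower. Fos, a subunit of AP-1, was 1244, 1448, 1566, 1407 and 1886 CPM with sorting and 2059, 2081 and 2016 CPM without, and fell by 0.44 (adjusted p = 0.01). Dnajb1, a heat shock co-chaperone, rose by 0.60 (adjusted p = 0.00663). Among 22 glycolysis and hypoxia genes, 10 were higher and 5 lower, and 2 and 4 of 21 with equal cells per class. Eno1, enolase, rose by 0.67 ± 0.11 (SE; adjusted p = 0.00128), and Hk2, hexokinase 2, fell by 0.91 ± 0.12 (SE; adjusted p = 0.000431). Txnip, an inhibitor of thioredoxin and glucose uptake, fell by 0.93 (adjusted p = 0.0129), and by 0.74 without unsorted animal 2 (adjusted p = 0.0678). Of 18 cell cycle genes, 7 were higher and 1 lower in the shared effect, with 2 higher without unsorted animal 3 and 11 without FAP-sorted animal 2. With equal cells per class 0 of 10 passed the threshold. FAP-sorted animal 4 was highest in their sum, 762 CPM, against 339 to 487 CPM in the other FAP-sorted and 378 to 399 CPM in unsorted animals.

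Some of the differences with the lowest p-values were in genes listed as possible copies of other genes, whose reads may not be assigned with certainty. Their sequence identity and read sharing were not tested. Rps27rt, a retrocopy of a ribosomal protein gene, was 35.2, 35.3, 29.6, 30.9 and 31.5 CPM in the 5 FAP-sorted animals and 110.1, 105 and 104 CPM in the 3 unsorted ones, and fell by 1.71 ± 0.07 (SE; adjusted p = 2e-07). Gm11808 and Gm2000 fell by 1.28 and 1.25, and Gm10076 rose by 1.65. Wdr89, a longer protein-coding gene in the same list, fell by 1.35. The software version changed with the library, and its part was not tested.

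Class shares and levels within classes were separated by weighting the class levels with common UMI shares, as a description without a test. Ccl11 differed by -2.30 on the plain log2 scale, by -1.50 at common shares and by -0.79 through the shares alone. For Thbd the same 3 values were -1.90, -1.24 and -0.68, and for Clic5 they were -2.62, -1.57 and -1.03. Col1a1, with 1.20, 1.09 and 0.12, and Il6, with -1.45, -1.25 and -0.21, had smaller parts through the shares. Mmp3 had -0.51 at common shares and 0.27 through the shares, which go in opposite directions. Fap had 0.42 and 0.07.

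Pi16+ fibroblasts could be compared only with a lower minimum of 10 cells per animal, set after the cells were counted, because the unsorted animals held 11, 19 and 24 of them. With that minimum, 478 of 6973 genes (6.86%) were called. Pi16 itself fell by 1.22 (adjusted p = 0.000176). Of 15 sublining genes 4 were lower and 1 higher, against 3.27% and 3.59% of all genes. The lower ones were Pi16, Cd34, a sialomucin of adventitial cells, Efemp1, fibulin-3, and Sema3c, a semaphorin, and the higher one was Cxcl12, a chemokine. Cd34, Efemp1 and Sema3c fell by 0.57, 1.18 and 1.03 (adjusted p = 0.0129, 0.00281 and 0.00219). Il6 fell by 1.02 (adjusted p = 0.027) and Mmp3 rose by 1.56 ± 0.21 (SE; adjusted p = 0.000473). Hp rose by 2.04 ± 0.26 (SE; adjusted p = 0.000292), and Cd55 fell by 1.49 (adjusted p = 0.000473). Among matrix genes, 6 of 32 were higher and 0 lower, against 3.59% of all genes called higher. Without unsorted animal 3, 210 genes were called.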

How the data were processed

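RNA was measured in single synovial cells of 17 animals, of which 8 enter the main comparison. The deposited matrices hold raw UMI counts per gene and barcode, made by the authors with Cell Ranger (version 6.0.6 and build mm10 per the submitters' processing notes, 5.0.0 and 6.0.0 per the file headers). The authors' annotation gives each cell's library, hashtag, class, counts per cell, a mitochondrial fraction and a stress score, as deposited. How classes, scores and doublets were handled is not stated there, wells were hyper-loaded per the labels, and no doublet caller was run. Rebuilt UMI totals equalled the annotated ones in 13444 of 24227 cells (55.5%) and otherwise exceeded them by at most 41.

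Counts were summed per animal and class over cells of the annotation, with at least 20 cells per animal. Genes were filtered with filterByExpr, scaled by TMM and tested with edgeR 4.0.16 (glmQLFit, glmQLFTest) in R 4.3.3, with Benjamini-Hochberg adjusted p under 0.05. The effect shared by classes and its difference between classes used limma 3.58.1 (voom, animal as a block). In simulated data where classes share the animal, too many of the calls of the shared effect were false. Shares and per-cell measures were tested by exact permutation over 56 splits. A share or interval from counts covers counting error only. Alternatives were DESeq2 1.42.0, no filter, thinning to 5000 UMIs, class-matched cells, leaving out each animal and a hashtag block.

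Members and gene lists were chosen with earlier results of these data known. Genes named are those of the gate and resolution lists, the 12 highest and 12 lowest of the shared effect, up to 4 of each list, 3 each way per class and the 8 with the strongest class difference, with an average of at least 20 CPM where ranked. A few further genes (Prg4, Pi16, Thy1, Pdgfra, Csf1, Ccl20, Dcn, C3, members of the limb, clock, acute-phase and sublining lists and the marker pairs) were named after their values were seen. Gene positions came from GENCODE (mm10) and promoters from RefSeq.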

Additional observations from a re-analysis of the deposited data

Results flagged for a closer look

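In 6 of 113 sets of 5 FAP-sorted values, 1 animal stood apart from the other 4 by Dixon's gap criterion, and chance alone gives about 1 in 20. They were Gm20186 at 50.6 CPM and Tnfaip3 at 225 CPM in FAP-sorted animal 3, Thbs1 at 115 CPM and Tnmd at 136 CPM in animal 2, Itga6 at 5.60 CPM in animal 5 and Wdr89 at 27.8 CPM in animal 1.

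The sorting difference of 10 genes named here differed between the 4 classes in limma's F test with Benjamini-Hochberg adjustment. The adjusted p was 0.00271 for Mmp3, 0.00324 for Acp5 and 0.00349 each for Col1a2, Fbln2, Hoxd13, Lrg1, Nt5dc2 and 1110008P14Rik. Hp followed with 0.00897 and Sox9 with 0.0157.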

How the results depend on the processing

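The FAP-sorted group is 1 library, so no setting separates gate and library. With no low-count filter, lining, Cd200+ and Pi16+ calls were 954, 576 and 782, and the shared effect called 10960 genes. With equal cells per class by edgeR it called 1092, and at a minimum of 50 cells 236 genes differed between classes. Hashtag numbers 1 to 3 occur in both groups. Correlations of same-numbered deviations were 0.0155, 0.150 and 0.176, the first not the highest of its animal. With 3 animals a side these values cannot decide whether the numbers pair animals. By Xist and the Y-linked genes FAP-sorted animal 1 was male and unsorted animal 1 female. With the replicate block, lining, Cd200+ and Pi16+ calls were 366, 85 and 130, and 4627 for all fibroblasts. The same animals without it gave 360, 51 and 188, and 1598 for Il6+ fibroblasts.

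With 1 animal left out, calls ran from 225 to 525 in lining, 1561 to 2503 in Il6+, 58 to 233 in Cd200+ and 210.0 to 435 in Pi16+ fibroblasts, and from 23 to 79 for the class difference. Shares then differed by -2.79 to -2.32 points for lining, 19.7 to 25.2 for Mmp3+, -31.3 to -26.9 for Il6+ and 6.65 to 8.16 for Pi16+ fibroblasts. Detection differed by 7.73 to 9.35 points for Fap and -7.43 to -4.83 for Pdpn, mitochondrial UMIs by 0.790 to 0.880 points, the stress score by -0.540 to -0.459 and hashtag counts by -710.3 to -579.8. Several adjusted calls of shares, detection and quality were lost, as only 35 or 21 splits remain.

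Unthinned detection differed by 12.6 points for Fap, -0.140 for Pdpn and -0.140 for Pdpn in Il6+ fibroblasts. At 2000 UMIs Pdpn differed by -1.29 in Il6+ and -2.67 in Cd200+ fibroblasts. At 5000 UMIs and without 1 animal it ran from -4.62 to 1.65 in lining and from -0.538 to 1.93 in Il6+ fibroblasts, median UMIs per cell from -931 to 1308, and genes from -106 to 131. The Cd200+ share was -2.99 points against 9 arthritic animals. Values that changed sign were Mmp3 (0.0682 against 9 animals, 0.00227 thinned, 0.0548 at 50 cells), Kcnj8 (-0.0966 thinned), and, with equal cells, Cd59a (-0.0577), Krtdap (0.516), Phex (0.519) and Acp5 (-0.747). At equal class weight these were Ifi27l2a (0.0930), Dkk2 (0.0659) and Cybb (0.244). The cause was not tested. Of all 4682 rechecked values, 4257 kept their direction and their side of the threshold.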

Other observations

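Nr1d1 and Nr1d2, nuclear receptors that repress transcription as part of the circadian clock, were lower in FAP-sorted fibroblasts. Over all fibroblasts of an animal Nr1d1 was at 25.4, 30.3, 31.01, 23.5 and 25.9 CPM in the 5 FAP-sorted animals and at 43.04, 48.1 and 53.2 CPM in the 3 unsorted ones. Nr1d2 was at 22.2 to 32.5 CPM and at 44.4 to 46.3 CPM. The animals of the groups did not overlap for either gene, as held for 41.9% of all genes. In Mmp3+ fibroblasts the log2 fold change was -1.13 for Nr1d1 and -0.96 for Nr1d2 (adjusted p = 6.8e-05 and 0.00016 by edgeR's quasi-likelihood test), and in lining fibroblasts it was -1.02 and -0.998 (adjusted p = 0.00282 and 0.00439). In Il6+ fibroblasts the values were -0.43 and -0.46 (adjusted p = 0.0774 and 0.0511). Of 10 tested clock genes, a list made after these values were known, 6 were lower and 1 higher in the effect shared by classes, which called 53.5% of all genes, and 2 were lower and 0 higher in the test with equal cells per class. No label states the hour of tissue collection, and its part in these values was not tested.

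Complement genes, which act in innate defence and opsonisation, did not move one way. Of 12 tested, 4 were higher and 2 lower in the shared effect by limma, against 26.9% and 26.7% of all genes. With equal cells per class by edgeR 0 were higher and 1 lower. Serping1, the C1 inhibitor, was at 3288 to 3847 CPM in FAP-sorted and at 2792 to 3118 CPM in unsorted animals, with a log2 fold change of 0.45 in Il6+ fibroblasts (adjusted p = 0.00105 by edgeR's quasi-likelihood test). C3, the central component, was at 5446 to 7486 CPM and at 7572 to 8178 CPM, and went apart by class. It fell by 0.36 on the log2 scale in Mmp3+ fibroblasts (adjusted p = 0.0121) and rose by 0.30 in Il6+ and 0.45 in Pi16+ fibroblasts (adjusted p = 0.00764 and 0.0213, edgeR's quasi-likelihood test), and the effect averaged over classes did not pass the test (adjusted p = 0.986 by limma).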
